A study of Mus musculus with 41 samples.

Results

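Peaks were examined at 10 genes of the TGF-beta and BMP pathways: the ligands *Tgfb2*, *Bmp2* and *Bmp4*, the receptors *Tgfbr1*, *Tgfbr2* and *Bmpr1a*, the SMAD proteins *Smad3* and *Smad7*, and the target genes *Id1* and *Id2*. They were chosen by name from 21938 protein-coding genes. A locus was the gene body plus 50 kb to each side in mm10, and every peak overlapping it was counted. The 10 loci were 101 to 211 kb long and covered 1491 kb, and also held 16 other protein-coding genes, so a peak at a locus need not belong to the named gene.

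In CUT&RUN (CNR), an antibody brings a nuclease to its protein on chromatin, and the short DNA pieces cut loose there are sequenced. The study asked how SOX9, a transcription factor of hair follicle stem cells, changes chromatin when it is switched on in epidermal stem cells (EpdSCs). EpdSCs were sorted from the back skin of male CD1 K14rtTA; TRE-myc-Sox9 mice, in which the *Krt14* promoter drives the doxycycline (DOX) sensor and DOX turns on MYC-tagged SOX9. SOX9 was mapped at D0 before DOX (postnatal day 21) and after 1, 2, 6 and 12 weeks of DOX (W1, day 28; W2, day 35; W6, day 63; W12), and MLL3/4, histone methyltransferases of enhancers, at D0, W1 and W2. The W12 skin had been grafted from newborn donors onto immunocompromised Nude females and healed before DOX, so the W12 list differs from the others in age, host and grafting as well as in weeks of DOX, and these cannot be told apart. In culture, K14rtTA keratinocytes carried a lentiviral, DOX-inducible, MYC-tagged wild-type SOX9 (WT-SOX9), SOX9 lacking its transactivation domain (dTA-SOX9) or SOX9 lacking its DNA-binding HMG domain (dHMG-SOX9). MLL3/4 and the MYC tag were mapped there with DOX at 1 µg per ml and, in WT-SOX9 cells, without DOX. Each group had 2 samples that the authors pooled into 1 list of peaks, so replicate spread was not measurable and no test between groups was made.

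TGF-beta and BMP ligands bind pairs of serine/threonine kinase receptors on the cell surface, which phosphorylate SMAD proteins that move to the nucleus and regulate genes. In skin, TGF-beta signalling restrains epidermal proliferation and is active in the hair germ, and BMP signalling holds hair follicle stem cells at rest. *Smad3* encodes a receptor-activated SMAD of the TGF-beta branch, *Smad7* an inhibitory SMAD induced by the pathway, and *Id1* and *Id2* encode inhibitors of basic helix-loop-helix factors that are classical BMP targets.

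The SOX9 lists held 792, 15651, 18657, 20579 and 9745 peaks from D0 to W12, kept by the authors above a maximum of 1800 RPKM (fragments per kb scaled to library size). The MLL3/4 lists held 37072, 31539 and 29281 peaks in vivo. Their maxima are whole numbers, read here as unscaled coverage whose depth is unknown. The labels of these lists and the paper's methods name RPKM instead, so maxima of different lists may not share a scale. In the RPKM lists the lower maxima are whole multiples of 1 fragment, to within 0.02 of a fragment. This gave 13.1 M to 32.5 M fragments per SOX9 list and 4.04 M to 6.09 M per MYC-tag list. A gene without a peak therefore had no peak above these limits at this depth, which does not show that the protein was absent. As a check of the sort, 5 of 7 EpdSC genes (*Krt5*, *Krt14*, *Krt15*, *Trp63* and *Itga6*, not *Itgb4* or *Ly6a*) had a promoter MLL3/4 peak at D0, W1 and W2 alike. Of 9 genes of other cell types 1 did at each time, *Dct* at D0 and W1 and *Col1a1* at W2. In cultured cells without DOX 3 of the 7 EpdSC genes had one. The WT-SOX9 cells had it at 1 of these genes, the dHMG-SOX9 cells at 2 and the dTA-SOX9 cells at 3. Of the 9 genes of other cell types 1, *Pecam1*, had one without DOX and also with WT-SOX9, and 0 did with either mutant. The part of these markers in the results was not tested.

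The sequences that carry the main results are shown as the plus strand of mm10 (GRCm38.p6), 101 bp around the centre of the signal maximum. Capitals mark SOX words and AP1 words on either strand, which do not overlap each other here. A SOX word is CCTTTGT or else CCATTGT, or the same with G as its opening base, and an AP1 word is TGACTCA or else TGAGTCA. Distances are from the annotated start of the gene to that centre, negative upstream. The 6 SOX9 sites shown first were listed at all 4 times after induction, and the *Id1*, *Bmp2* and *Bmp4* windows are the *Id1* promoter, the WT-SOX9 site near *Bmp2* and the *Bmp4* promoter region that lost MLL3/4.
Tgfb2 intron at 64.7 kb, chr1:186641205-186641305: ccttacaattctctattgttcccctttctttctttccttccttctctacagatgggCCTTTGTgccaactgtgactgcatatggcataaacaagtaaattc
Tgfbr2 upstream at -32.9 kb, chr9:116208215-116208315: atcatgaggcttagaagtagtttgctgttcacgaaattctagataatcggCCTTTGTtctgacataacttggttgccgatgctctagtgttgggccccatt
Tgfbr1 intron at 54.2 kb, chr4:47407387-47407487: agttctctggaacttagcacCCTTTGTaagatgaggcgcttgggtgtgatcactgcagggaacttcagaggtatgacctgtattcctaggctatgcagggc
Bmpr1a promoter at -0.607 kb, chr14:34503898-34503998: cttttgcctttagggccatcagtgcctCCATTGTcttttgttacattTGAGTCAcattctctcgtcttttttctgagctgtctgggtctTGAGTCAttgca
Smad3 upstream at -3.65 kb, chr9:63761594-63761694: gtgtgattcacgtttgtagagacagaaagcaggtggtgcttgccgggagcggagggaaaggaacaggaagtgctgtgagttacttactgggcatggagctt
Id2 locus, Kidins220 intron at 37.2 kb, chr12:25059881-25059981: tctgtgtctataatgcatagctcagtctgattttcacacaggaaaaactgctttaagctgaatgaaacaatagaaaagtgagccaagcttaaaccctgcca
Id1 promoter at -0.091 kb, chr2:152736110-152736210: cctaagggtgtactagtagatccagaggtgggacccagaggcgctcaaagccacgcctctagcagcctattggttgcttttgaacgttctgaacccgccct
Bmp2 upstream at -4.69 kb, chr2:133547420-133547520: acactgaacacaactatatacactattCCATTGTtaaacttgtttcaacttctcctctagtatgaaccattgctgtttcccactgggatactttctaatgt
Bmp4 promoter at -0.294 kb, chr14:46390913-46391013: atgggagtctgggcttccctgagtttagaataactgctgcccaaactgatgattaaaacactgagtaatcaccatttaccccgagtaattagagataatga

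SOX9 was listed at 1 of the 10 loci at D0 (*Tgfbr2*), against 6.04% of all protein-coding genes. After induction it was listed at 9 loci at W1 (52.4% of all genes), 8 at W2 (57.5%), 8 at W6 (58.8%) and 7 at W12 (39.8%). In the stronger 50% of each list it was at 5 loci at W1 (31.2% of all genes), 6 at W2 (39.4%), 6 at W6 (38.7%) and 3 at W12 (23.1%). Within these loci *Bmp2* had no SOX9 peak at any time, *Bmp4* had 1 at W1 alone, and *Id1* had none at W12. The loci held 2, 23, 35, 34 and 15 SOX9 peaks from D0 to W12. Per 100 kb the median was 2.01 peaks at W2 against 0.763 over all genes, at loci with a median length of 145 kb against 117 kb. The counts differed widely between members, from 0 to 8 at W2.

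**Figure D1:**
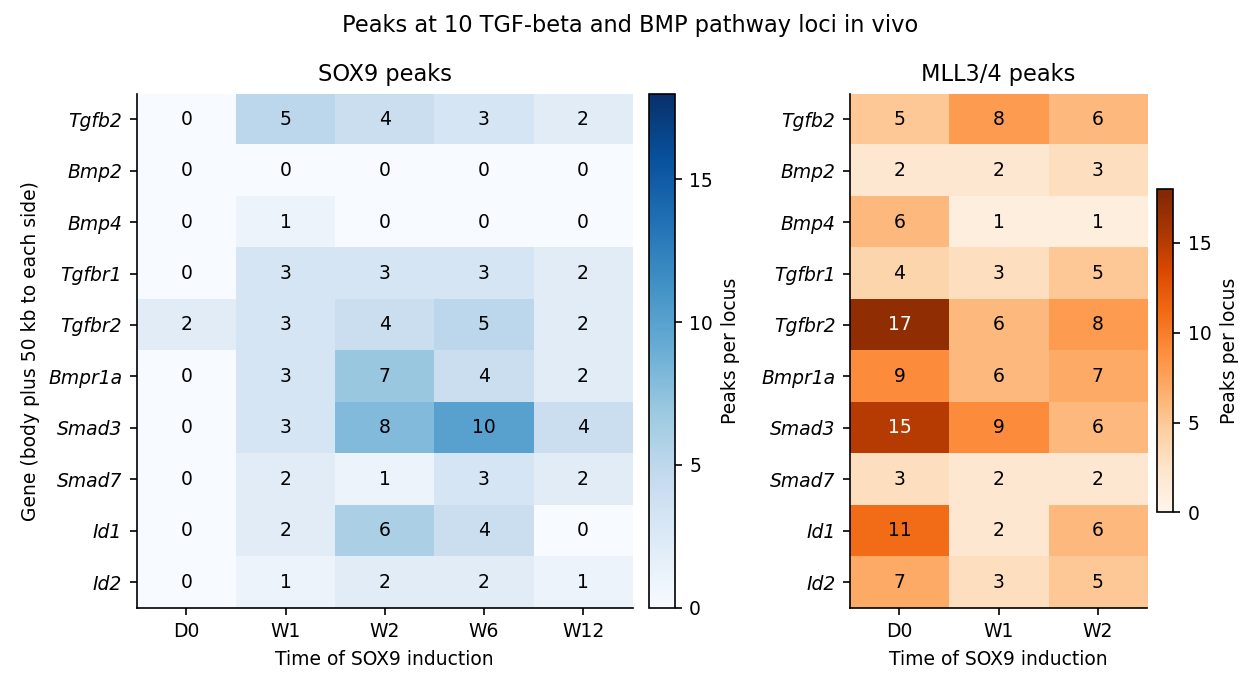
Number of SOX9 peaks (left) and MLL3/4 peaks (right) at each gene (rows) in each pooled list (columns), with the count printed in its cell and shown by colour. SOX9 peaks were listed at 8 of 10 loci at W2 and at 1 at D0, and MLL3/4 counts were lower at W1 than at D0 at 8 loci and higher at Tgfb2.

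MLL3/4 marked all 10 loci before induction, against 71.7% of all genes, with 79 peaks. It fell to 42 peaks at W1 and stood at 49 at W2. At W1, 8 loci had fewer MLL3/4 peaks than at D0 (48.2% of all genes, or 67.3% of the genes with a D0 peak), *Tgfb2* had more (16.8% of all genes) and *Bmp2* had the same number. At W2, 7 loci had fewer (49.0% of all genes, or 68.3% of those with a D0 peak, which is near the members' count) and *Tgfb2*, *Bmp2* and *Tgfbr1* had more (14.0%, or 14.6%). At *Bmp2* no place was new at W2, as 1 D0 peak overlapped 2 W2 peaks. At *Tgfb2* the W2 peak at -43.2 kb lay at the promoter of *Rrp15*, and by nearest start *Tgfb2* had 5 peaks at both D0 and W2. Of the 79 D0 peaks 53 were lost at W1, that is had no overlapping W1 peak, a share of 67.1% (95% Wilson interval 56.1 to 76.4) against 48.5% of the whole D0 list. At W2 the lost share was 53.2% (42.3 to 63.8) against 48.7%, a difference within the interval. These intervals cover counting only and take peaks of 1 locus as independent.

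Lost peaks were mostly weak ones, of median rank 21774 of 37072 by total signal, but the lost share at W1 was above that of the list on both sides of the middle rank. Among member peaks in the stronger 50% of the D0 list, 17 of 36 were lost (47.2%) against 27.2% over the list, and in the weaker 50%, 36 of 43 (83.7%) against 69.7%. Of the 53 lost peaks 38 had a D0 maximum of at most 8, where 5 was the lowest in the list, so these lay near the lower limit of the list. In sorted cells, fewer cells carrying MLL3/4 and less MLL3/4 per cell cannot be told apart.

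**Figure D2:**
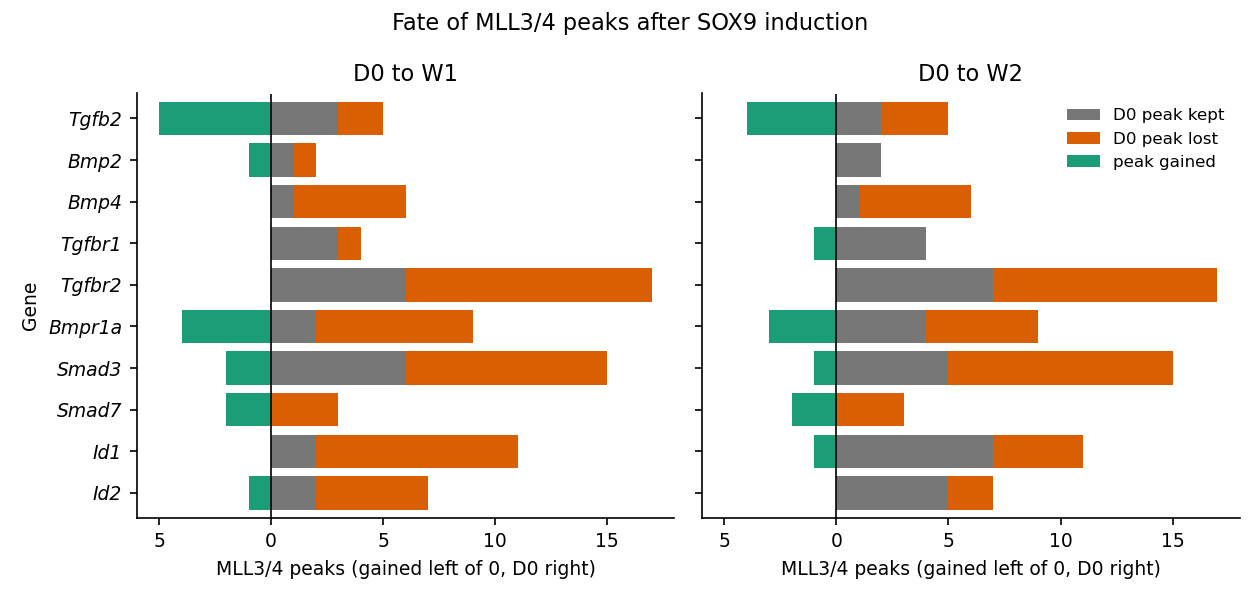
For each gene, D0 MLL3/4 peaks kept (grey) or lost (orange) are drawn to the right of 0, and peaks gained since D0 (green) to the left, for W1 (left panel) and W2 (right panel), in numbers of peaks. Tgfbr2 lost 11 of 17 peaks and gained none at W1, and Tgfb2 gained 5.

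SOX9 sat on few of the lost peaks. At W1 it overlapped 4 of the 53 lost peaks (7.55%, 2.97 to 17.9), 12 of the 27 W1 peaks that were kept (44.4%, 27.6 to 62.7) and 6 of the 15 gained ones (40.0%, 19.8 to 64.3). The whole lists gave 7.58%, 55.0% and 30.5%, all within the members' intervals. Of the peaks lost at W1, 15 were listed again at W2 (28.3%, 18 to 41.6, against 21.9% over the list). SOX9 at W2 overlapped 9 of these 15 returning peaks (60.0%, 35.7 to 80.2, against 30.3% over the list) and 3 of the 38 that stayed away (7.89%, against 5.61%). Of the 9 returning peaks with SOX9, 5 were at *Id1*, so this share rests largely on 1 locus, where 2 of them lay under 1 wide W2 peak.

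Among the ligands, *Tgfb2* (ENSMUSG00000039239.14, chr1:186622792-186705989, minus strand), a TGF-beta ligand known from hair follicles, had more MLL3/4 peaks at W1 than at D0. SOX9 peaks at its locus numbered 0, 5, 4, 3 and 2 from D0 to W12. MLL3/4 went from 5 peaks at D0 to 8 at W1 and 6 at W2, of which that at -43.2 kb lay at the promoter of *Rrp15*. By nearest start *Tgfb2* had 5, 11 and 5 MLL3/4 peaks. Within 50 kb it was the member with the most SOX9 peaks at W1 and the only one with more MLL3/4 peaks then, while by nearest start *Tgfbr2* had 11 SOX9 peaks at W1, *Bmp2* 7 and *Tgfb2* 5. All 6 of its SOX9 sites, merged over W1 to W12, were free of SOX9 at D0, and none lay at its promoter.

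The intronic *Tgfb2* site at 64.7 kb had no MLL3/4 or SOX9 peak at D0. Its SOX9 maximum was 6396 RPKM at W1 (95% Poisson interval of the 111 fragments, 5262 to 7703), 2445 at W2 (1672 to 3451), 3190 at W6 (2514 to 3993) and 1930 at W12 (1391 to 2609), so W1 lay above the later times beyond counting error. An MLL3/4 peak appeared there at W1 with a maximum of 6, near the limit of the list, and was not listed at W2. The window holds the SOX word CCTTTGT shown above. In cultured cells the same site carried a WT-SOX9 MYC-tag peak of 5089 RPKM (31 fragments, rank 349 of 6671) and an MLL3/4 peak that was not listed without DOX. Neither dTA-SOX9 nor dHMG-SOX9 had a MYC-tag peak there.

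Downstream of *Tgfb2*, SOX9 joined MLL3/4 that was already present. At 96.0 kb its maximum was 5186 RPKM at W1, 3820 at W2 and 3610 at W6, on MLL3/4 maxima of 15, 19 and 13 at D0, W1 and W2. At 119 kb it was 2017 and 3896 RPKM at W1 and W2, on MLL3/4 of 14, 12 and 9. At 120 kb SOX9 (2420 and 3056 RPKM) came with MLL3/4 peaks of 9 and 7 at W1 and W2 where D0 had none. The *Tgfb2* MLL3/4 peak of highest total signal among those gained at W1, at 87.2 kb, had no SOX9 peak at any time. The largest one lost lay in an intron at 43.2 kb, with a D0 maximum of 11.

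**Figure D3:**
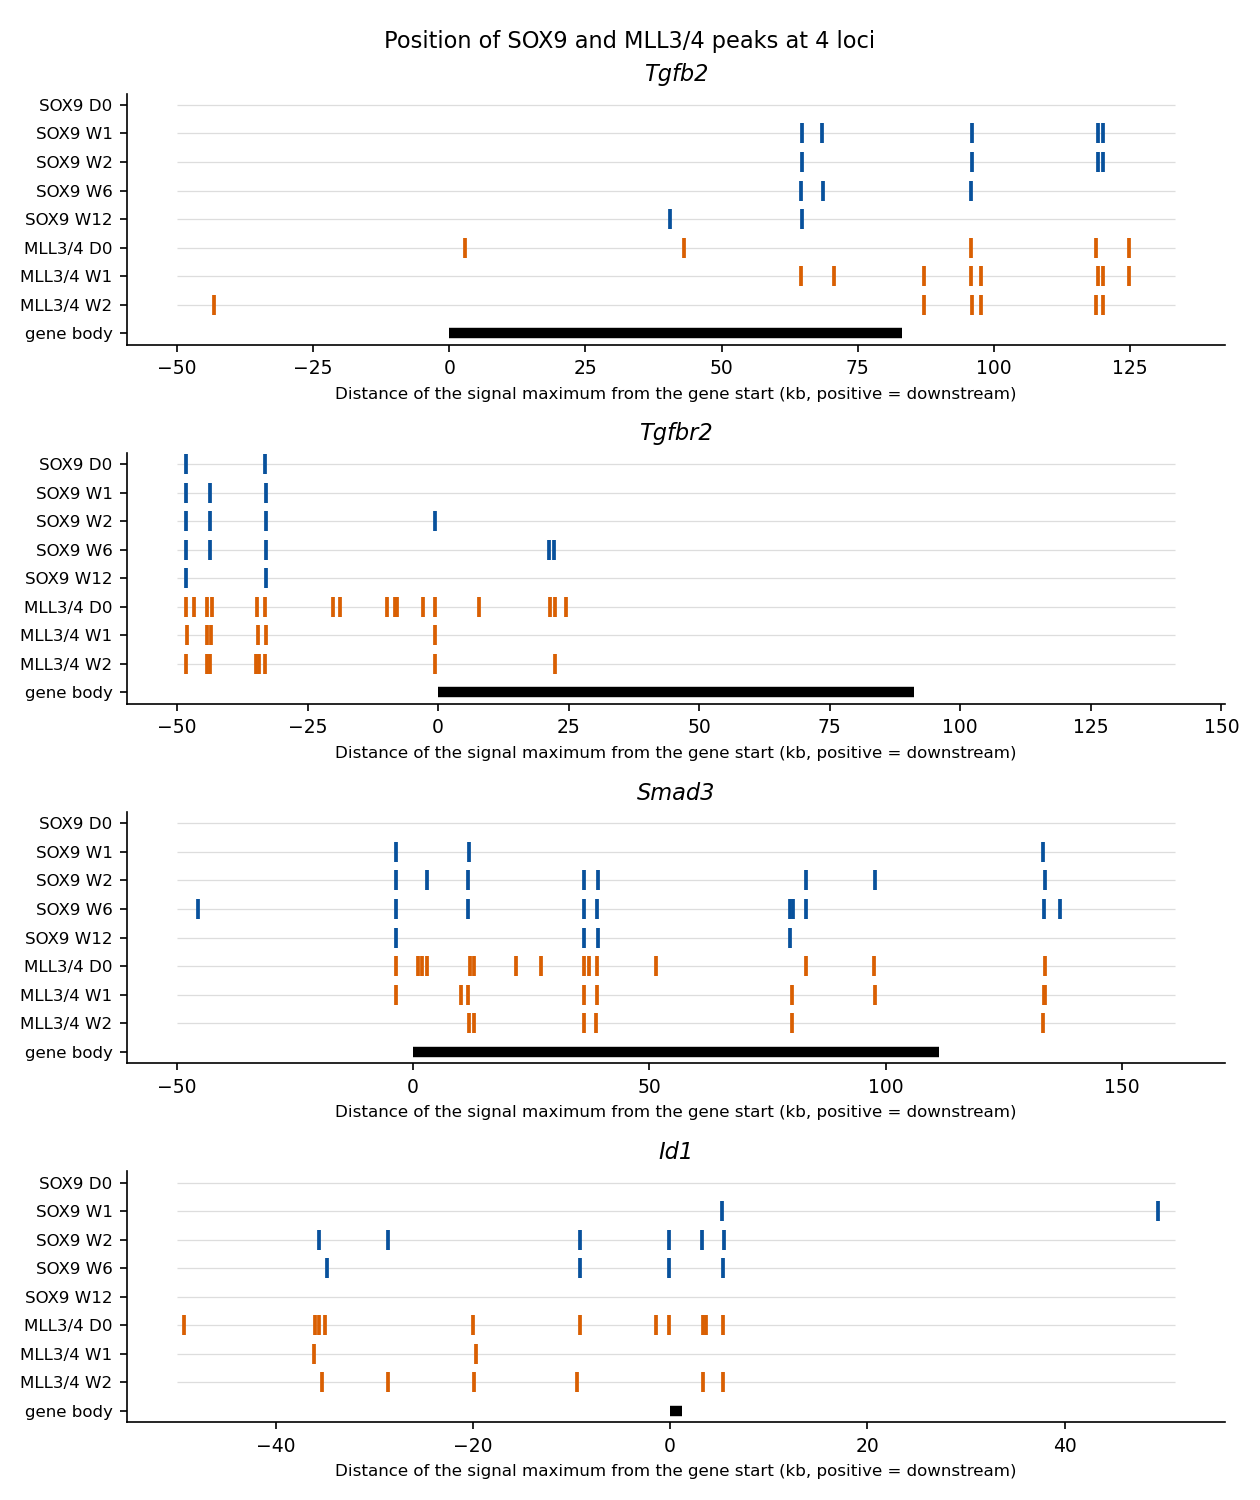
Positions of SOX9 peaks (blue) and MLL3/4 peaks (orange) at 4 loci, with a row for each pooled list, against the distance of the signal maximum from the gene start in kb, with the gene body as a black bar. At Tgfbr2, 11 MLL3/4 peaks of D0 are absent at W1, 10 of them between -20.1 and 24.4 kb, and the 6 that stay are the promoter peak and 5 upstream peaks between -48.2 and -33.1 kb.

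*Bmp4* (ENSMUSG00000021835.15, chr14:46383520-46390669), a BMP ligand of skin, went from 6 MLL3/4 peaks at D0 to 1 at W1 and 1 at W2. The strongest lost peak lay at its promoter, at -0.294 kb, with a D0 maximum of 17 (rank 2849). A second promoter peak at another annotated start and a peak at -7.80 kb with a maximum of 14 were lost as well. The remaining peak, at -49.2 kb, had maxima of 8, 5 and 7. Within 50 kb SOX9 was listed at W1 alone, with 2017 RPKM at 3.35 kb, on a D0 MLL3/4 peak with a maximum of 6 that was then lost. The *Bmp4* promoter window shown above held neither a SOX nor an AP1 word.

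*Bmp2* (ENSMUSG00000027358.6, chr2:133552159-133562885), another BMP ligand, had no SOX9 peak within 50 kb in vivo (by nearest start it had 7, 6, 8 and 4 from W1 to W12), and its MLL3/4 went from 2 peaks at D0 and W1 to 3 at W2. At W1 the peak at -1.58 kb, with a maximum of 7, was lost until W2, and a peak with a maximum of 5 at -1.81 kb was gained. Its strongest MLL3/4 peak, at 12.6 kb, had maxima of 14, 5 and 8. In cultured cells WT-SOX9 gave a MYC-tag peak at -4.69 kb with 4104 RPKM (25 fragments, rank 408), together with an MLL3/4 peak, where the lists without DOX had neither. That window holds the SOX word CCATTGT.

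Among the receptors, *Tgfbr2* (ENSMUSG00000032440.13, chr9:116084293-116175360), the ligand-binding TGF-beta receptor, held the most MLL3/4 peaks at D0, 17, a count that 1.76% of all genes reached. Its MLL3/4 peaks numbered 6 at W1 and 8 at W2, and its SOX9 peaks 2, 3, 4, 5 and 2 from D0 to W12. None of the MLL3/4 peaks listed at W1 or W2 was new. Of the 11 peaks lost at W1, 6 lay between -20.1 and -2.92 kb, 4 between 7.81 and 24.4 kb and 1 at -46.8 kb. Of the 6 kept, 1 lay at the promoter and 5 in an upstream block between -48.2 and -33.1 kb. Of the peaks lost, 2 ever carried SOX9, both intronic and at W6 alone. The strongest peak lost, at 22.3 kb, had a maximum of 17 at D0 and was listed again at W2 with 7.

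The MLL3/4 maxima of the kept *Tgfbr2* peaks were below those of D0 at all 6 kept at W1 and at 6 of the 7 kept at W2, where the peak at -34.6 kb went from 6 to 7. At the promoter the maximum was 28 at D0, 8 at W1 and 15 at W2. At -44.3 kb, the strongest MLL3/4 peak of any member, it was 52, 21 and 13, and at -33.1 kb 29, 16 and 12. The median ratio to D0 over the 6 peaks kept at W1 was 0.49, against 0.833 over all 19109 kept peaks and 0.560 over the 2058 with a D0 maximum of at least 20. At W2 it was 0.5 over 7 peaks, against 0.833 and 0.571. Of the 6 kept at W1, 5 had a D0 maximum of at least 20, and strong peaks had lower later maxima over the whole list as well.

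The *Tgfbr2* site at -32.9 kb had the strongest SOX9 binding of any member. Its maximum was 2490 RPKM at D0 (interval 1977 to 3095), 10891 at W1 (9393 to 12559), 12606 at W2 (10756 to 14682), 8773 at W6 (7624 to 10047) and 4182 at W12 (3367 to 5135). The W1, W2 and W6 values lay above both D0 and W12 beyond counting error, and the W2 peak ranked 795 of 18657. The window, centred on the W2 maximum, holds the SOX word CCTTTGT. The D0 maximum lay to its side, at -33.1 kb, with no SOX word within 50 bp. SOX9 at -48.2 kb had 2029, 3573, 4278, 4785 and 1884 RPKM from D0 to W12, so *Tgfbr2* was the member with SOX9 before induction, at both of these sites. The new SOX9 site of highest total signal at W2, at -43.7 kb, had 1902, 2827 and 2057 RPKM from W1 to W6, held a SOX word and, merged over the times, overlapped the MLL3/4 peak with the maximum of 52. At the *Tgfbr2* promoter SOX9 was listed at W2 alone, with 2216 RPKM.

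*Tgfbr1* (ENSMUSG00000007613.15, chr4:47353222-47414931), the signalling TGF-beta receptor, changed little in its number of MLL3/4 peaks, with 4, 3 and 5. Its SOX9 peaks numbered 0, 3, 3, 3 and 2. Its 3 SOX9 sites all lay on D0 MLL3/4 peaks. At 54.2 kb SOX9 had 3630, 2903, 3526 and 2022 RPKM from W1 to W12 and MLL3/4 6, 7 and 10. At -42.3 kb, by an exon of *Col15a1*, SOX9 had 3227, 3743, 4198 and 2068 RPKM and MLL3/4 10, 7 and 10. At the promoter SOX9 had 1959, 3514 and 2099 RPKM from W1 to W6, and the MLL3/4 peak there was absent at W1 and listed again at W2 (maxima of 8 at D0 and 7 at W2). A second *Tgfbr1* promoter MLL3/4 peak, at -1.02 kb, was listed at all 3 times, with maxima of 8, 5 and 6, so the promoter kept MLL3/4 at W1. The W12 values of both lasting sites lay near the limit of 1800.

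*Bmpr1a* (ENSMUSG00000021796.15, chr14:34410734-34503341), a BMP receptor required for hair differentiation, had 0, 3, 7, 4 and 2 SOX9 peaks and 9, 6 and 7 MLL3/4 peaks within 50 kb. By nearest start it had 0, 1, 2, 1 and 2 SOX9 peaks and 4, 4 and 1 MLL3/4 peaks. Of its 9 D0 MLL3/4 peaks 7 were lost at W1, and 3 of these overlapped a W2 peak. The strongest lost, at 140 kb and nearest to the start of *Fam25c*, had a maximum of 10 (rank 1537). It was listed again at W2 with 5, where SOX9 at 139 kb had 2903 RPKM at W2 alone. *Bmpr1a* was the only receptor gene with a SOX9 promoter site at all 4 times, at -0.607 kb, with 3342, 2368, 2393 and 1884 RPKM from W1 to W12, whose intervals overlap. That window holds a SOX word and AP1 words. At W1 an MLL3/4 peak with a maximum of 7 was listed at the promoter that D0 and W2 lacked there. Beside it, at -1.32 kb and under the same merged SOX9 site, an MLL3/4 peak was listed at D0, W1 and W2, with maxima of 9, 5 and 6. Peaks of MLL3/4 gained at -11.1 kb (maxima of 9 at W1 and 8 at W2) and -40.6 kb (8 at W1) coincided with SOX9. These lie by exons of *9230112D13Rik* and *Ldb3*, and the strongest SOX9 site of the locus at W2, 4584 RPKM at 124 kb, lies in *Mmrn2*, so their target is unknown.

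**Figure D4:**
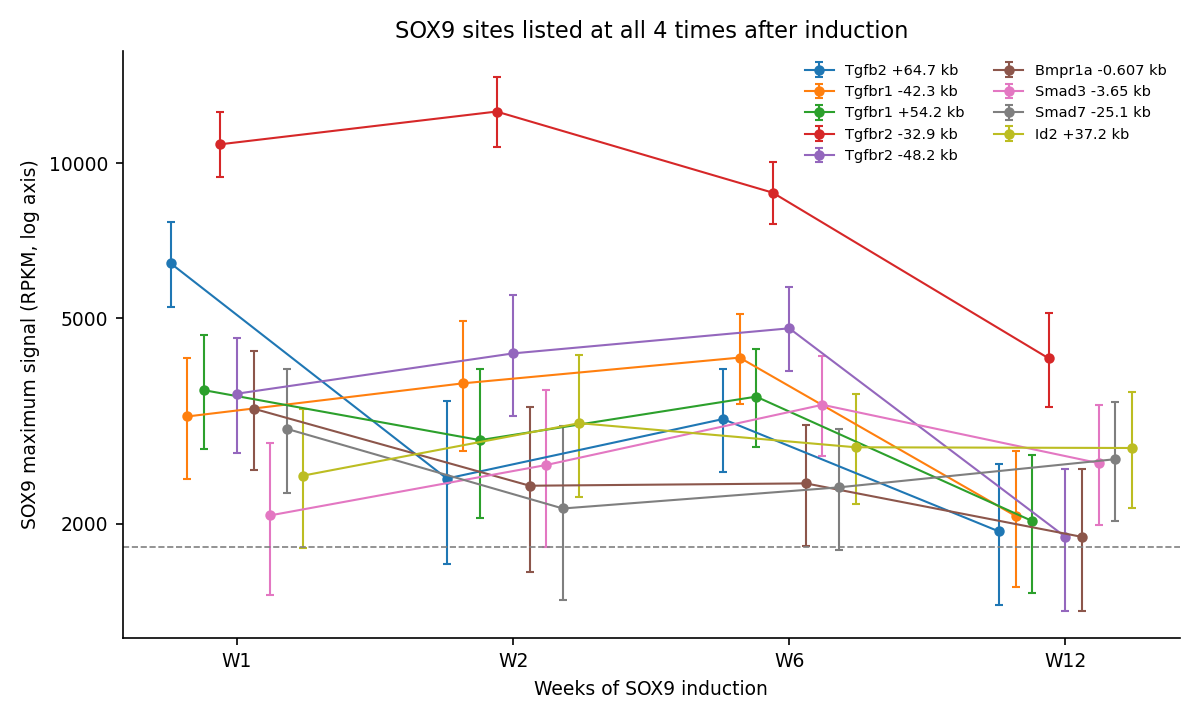
SOX9 maximum signal in RPKM on a log axis at W1, W2, W6 and W12 for the 9 sites listed at all 4 times, with 95% Poisson intervals for counting error as bars and the authors' limit of 1800 RPKM as a dashed line. Points are shifted sideways for clarity. The Tgfbr2 site at -32.9 kb lies above the other sites at every time.

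Among the SMAD genes, *Smad3* (ENSMUSG00000032402.12, chr9:63646767-63757994) held more SOX9 peaks than the other members at W2 and W6 by count within 50 kb, in the longest of the 10 loci (211 kb), and its MLL3/4 peaks became fewer. Per 100 kb *Smad3* had 3.79 SOX9 peaks at W2 and *Id1* 5.93, and by nearest start *Tgfbr2* had 11 and 16 at W2 and W6 and *Smad3* 7 and 10. It had 0, 3, 8, 10 and 4 SOX9 peaks, and the W6 count was reached by 1.74% of all genes. Its MLL3/4 peaks numbered 15, 9 and 6. Of its 12 SOX9 sites 9 were first listed at W2 or later, 8 lay on D0 MLL3/4 and 5 held an AP1 word, while 1 held a SOX word. The new site of highest total signal at W2, at 134 kb in an intron of *Aagab*, had 2132, 3209 and 2687 RPKM from W1 to W6, on MLL3/4 maxima of 7, 7 and 6. At -3.65 kb SOX9 was listed at all 4 times, with 2074, 2598, 3400 and 2620 RPKM, and MLL3/4 there had maxima of 12 at D0 and 8 at W1 and no peak at W2. At 83.2 kb the MLL3/4 peak with a maximum of 11 was lost at W1, before SOX9 was listed there at W2 (2139 RPKM) and W6 (2351 RPKM). At 36.1 and 39.1 kb, SOX9 appeared at W2 and was still listed at W12, on MLL3/4 peaks present at all 3 times. A promoter MLL3/4 peak, with a maximum of 6, was listed at D0 alone. Of the 2 *Smad3* peaks gained at W1, that of higher total signal, at 10.2 kb, had a maximum of 5 and no SOX9.

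*Smad7* (ENSMUSG00000025880.11, chr18:75367529-75395935) had 0, 2, 1, 3 and 2 SOX9 peaks and 3, 2 and 2 MLL3/4 peaks. The small change in number hid a complete turnover, as none of its 3 D0 peaks overlapped a W1 or W2 peak, but all had maxima of 8 or less. At -25.1 kb SOX9 was listed at all 4 times, with 3054, 2139, 2351 and 2666 RPKM, without an MLL3/4 peak in vivo. At -4.18 kb SOX9 was listed at W1, W6 and W12 (2074, 2309 and 1884 RPKM), on the strongest D0 MLL3/4 peak of the locus (maximum of 8), which was lost at W1. At W2 another MLL3/4 peak, with a maximum of 5 at -4.59 kb, overlapped the edge of this site without overlapping the D0 peak. Of the 2 MLL3/4 peaks gained at W1, that of higher total signal, at -2.93 kb with a maximum of 5, had no SOX9. The sequences of these sites are not shown.

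The BMP targets *Id1* and *Id2* both lost MLL3/4 at W1 and had part of it back at W2. *Id1* (ENSMUSG00000042745.9, chr2:152736251-152737410) had 11, 2 and 6 MLL3/4 peaks and 0, 2, 6, 4 and 0 SOX9 peaks. Of the 9 peaks lost at W1, 5 overlapped a W2 peak, and SOX9 overlapped all 5 at W2. Of these, 2 D0 peaks at -35.6 and -35.0 kb lay under 1 wide W2 peak over a region that still had a W1 peak beside them, so 3 separate regions were listed at D0 and W2 but not at W1. The strongest peak lost, at -9.16 kb, had MLL3/4 maxima of 13 at D0 and 8 at W2, and SOX9 there had 3667 RPKM at W2 and 3232 at W6. At 5.41 kb SOX9 had 2017, 4202 and 3274 RPKM from W1 to W6, and MLL3/4 12 at D0, none at W1 and 7 at W2. At the promoter SOX9 was listed at W2 (3973 RPKM, interval 2967 to 5210) and W6 (2477 RPKM), while the MLL3/4 peak of D0, with a maximum of 8, was not listed again. No *Id1* site held a SOX word within 50 bp of its in vivo maximum. At 49.4 kb this rests on the edge of the window, since the cultured WT-SOX9 peak at the same place, centred a few bases away, has a SOX word. The new *Id1* site of highest total signal at W2, at -35.6 kb by an exon of *H13*, had 2292 RPKM at W2 and 2015 at W6.

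*Id2* (ENSMUSG00000020644.9, chr12:25093799-25097140) had 0, 1, 2, 2 and 1 SOX9 peaks and 7, 3 and 5 MLL3/4 peaks. Its promoter held 2 MLL3/4 peaks at D0, 0 at W1 and 2 at W2, with the highest maxima at 10 and 7, and SOX9 was listed there at W2 alone (1834 RPKM, 24 fragments, the lowest value of that list). The lasting SOX9 site of the locus, at 37.2 kb, had 2478, 3132, 2812 and 2803 RPKM, whose intervals overlap, and gained an MLL3/4 peak at W1 with a maximum of 6. It lies in *Kidins220*, so its target is unknown.

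Merged over W1 to W12, the 10 loci held 48 SOX9 sites, of 28549 in the series, and 46 of them had no SOX9 peak at D0. Of the 48, 9 were seen at all 4 times (18.8%, 10.2 to 31.9) and 19 at a single time (39.6%, 27.0 to 53.7), against 17.9% and 36.0% in the series. MLL3/4 was already present at D0 at 31 sites (64.6%, 50.4 to 76.6, against 53.7%), and 7 of the other 17 gained it at W1 or W2 (41.2%, 21.6 to 64.0, against 44.7%). The series shares lay within the members' intervals for these 4 quantities. Sites whose D0 MLL3/4 was not listed at W1 or W2 numbered 6 of the 48 (12.5%, 5.86 to 24.7), against 4.83% in the series, which lay below the interval. A SOX word lay within 50 bp of the maximum at 6 sites (12.5%, 5.86 to 24.7) and an AP1 word at 15 (31.2%, 19.9 to 45.3), against 17.1% and 19.8% of all sites in windows of the same length. The AP1 share of the series lay just under the members' interval. At D0, before SOX9, AP1 words were also frequent at the members' MLL3/4 peaks, in 19 of 79 (24.1%, 16.0 to 34.5) against 12.9% of the list. A match is a description of the letters, not of a bound factor.

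In cultured cells MLL3/4 peaks were fewer with WT-SOX9 at 9 of 10 loci, against 64.3% of all genes and 90.8% of those with a peak without DOX. WT-SOX9 cells held 12 MLL3/4 peaks at the loci with DOX and 66 without it, dTA-SOX9 cells 51 and dHMG-SOX9 cells 57, in lists of 10543, 33975, 25948 and 23301 peaks. With dTA-SOX9, 6 loci had fewer than without DOX (46.0% of all genes, or 64.9% of those with a peak without DOX) and with dHMG-SOX9 4 loci (44.7%, or 63.1%). All 3 comparisons share the lists without DOX. With WT-SOX9, 59 of the 66 peaks had no overlapping peak (89.4%, 79.7 to 94.8, against 82.0% of the list), with dTA-SOX9 25 (37.9%, 27.1 to 49.9, against 44.3%) and with dHMG-SOX9 21 (31.8%, 21.8 to 43.8, against 43.5%). In lists of equal size the share absent with dHMG-SOX9 was 18.4%, against 28.9% of the list. Of the 4 lists that of WT-SOX9 held the fewest peaks, at unknown depth. The titles of the samples behind the WT-SOX9 list number them as different replicates, but both are described as replicate 2. Which replicates stand behind this list is therefore unsure.

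*Smad3* showed the widest range, from 18 MLL3/4 peaks in untreated cells to 0 after WT-SOX9, 15 after dTA-SOX9 and 14 after dHMG-SOX9. In the same order, *Smad7* had 10, 1, 5 and 11, *Id1* 8, 2, 8 and 11, and *Tgfbr1* 9, 2, 8 and 5. *Bmpr1a* had 8, 3, 5 and 6, *Tgfb2* 6, 1, 4 and 3, *Tgfbr2* 4, 1, 4 and 4, and *Id2* 2, 1, 1 and 2. *Bmp4* had 1, 0, 1 and 1, and *Bmp2* 0, 1, 0 and 0. At the *Bmp4* locus the peak without DOX lay at 32.8 kb and those with dTA-SOX9 and dHMG-SOX9 at 39.3 kb, so they were different peaks. All were nearest to the start of *Gm15217*. Of the 59 peaks lost with WT-SOX9, none carried a WT-SOX9 MYC-tag peak, which allows a share of up to 6.11% by the Wilson interval, against 1.75% over the list.

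**Figure D5:**
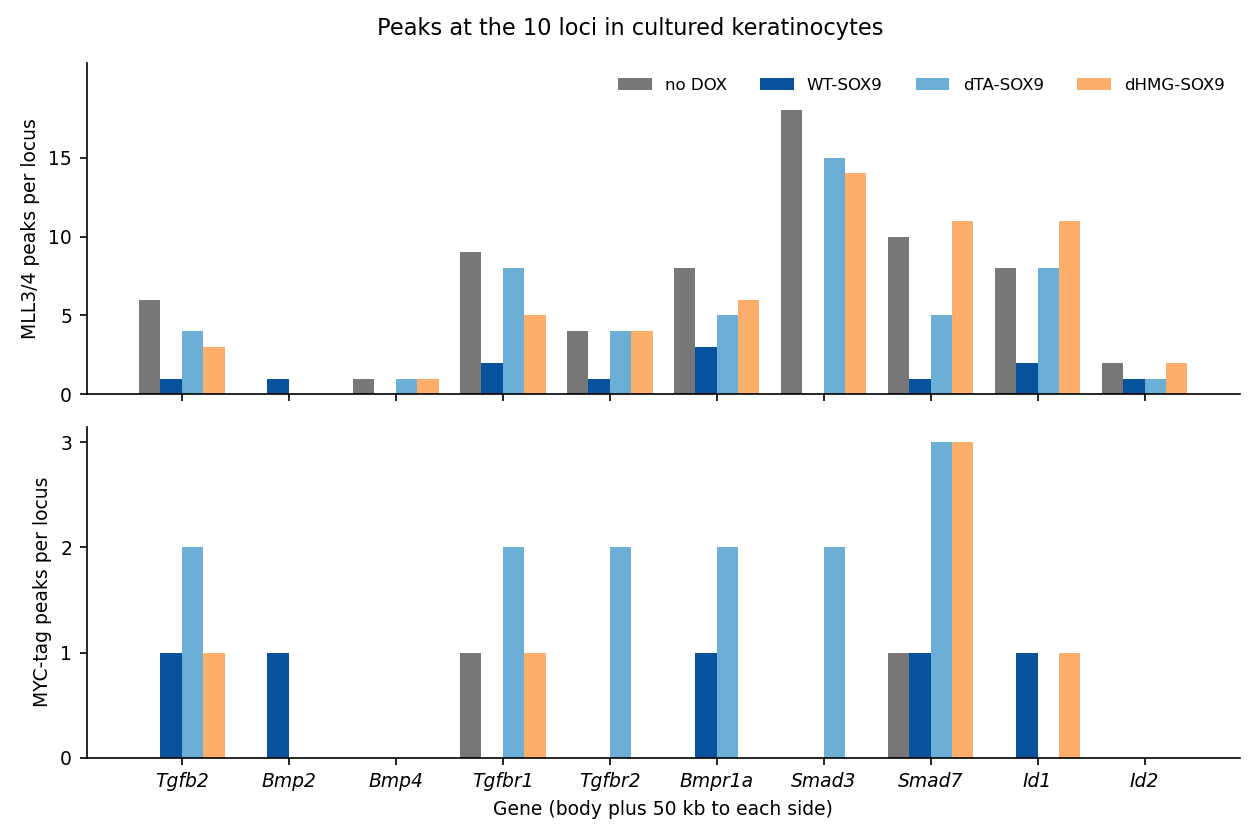
MLL3/4 peaks (top) and MYC-tag peaks (bottom) per locus in cultured keratinocytes without DOX (grey) and with WT-SOX9, dTA-SOX9 or dHMG-SOX9 (colours), 1 bar per pooled list. Smad3 falls from 18 MLL3/4 peaks to 0 with WT-SOX9 and has 15 and 14 with the SOX9 forms lacking a domain.

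The MYC tag was listed at 5 loci with WT-SOX9 (32.0% of all genes), 6 with dTA-SOX9 (41.0%), 4 with dHMG-SOX9 (29.3%) and 2 without DOX (20.1%). The 5 WT-SOX9 peaks, 1 each at *Tgfb2*, *Bmp2*, *Bmpr1a*, *Smad7* and *Id1*, had no counterpart in the lists of dTA-SOX9 or dHMG-SOX9. That at *Smad7* had 1806 RPKM, the lowest maximum of its list, and ranked 6644 of 6671. A SOX word lay in 4 of these 5 windows (80.0%, 37.6 to 96.4, against 34.2% of the list), and an MLL3/4 peak lay on 4 of them, of which 3 (*Tgfb2*, *Bmp2* and *Bmpr1a*) were new. The *Id1* locus peak lies in *Bcl2l1* at 49.4 kb. The 13 dTA-SOX9 peaks held 1 SOX word and 7 AP1 words, 53.8% (29.1 to 76.8) against 25.7% of the list. Of the 48 SOX9 sites found in vivo, 2 carried a WT-SOX9 peak (4.17%, 1.15 to 14.0, against 12.2% in the series) and 10 a dTA-SOX9 peak (20.8%, 11.7 to 34.3, against 17.5%). The dHMG-SOX9 peaks, which lack the DNA-binding domain, had 8 to 21 fragments, and the strongest, in a *Tgfbr1* intron at 37.7 kb, was also listed without DOX.

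A wider list of 61 pathway genes gave the surroundings of these members. At W1, 40 of the 61 had a SOX9 peak, at W2 40, at W6 45 and at W12 32, against 6 at D0. The shares of all genes given above for these times were 52.4%, 57.5%, 58.8% and 39.8%. The largest W2 counts were at *Tgfbr3*, a co-receptor (17 SOX9 peaks), *Acvr1b*, an activin receptor (16), and *Acvrl1*, a BMP receptor of vessels (12). Each gene was counted on its own, so a peak counts for every gene whose locus it overlaps. Whether these genes share peaks was not examined. MLL3/4 peaks were fewer at W1 than at D0 at 31 genes and more at 9, and at W2 fewer at 30 and more at 16, while 14 of the 61 had no D0 peak. Over all genes the shares were 48.2% fewer and 16.8% more at W1, and 49.0% and 14.0% at W2, so the fewer counts of the list (31 and 30 of 61) were near those of all genes. The largest falls to W2 were at *Id3*, a BMP target (19, 10 and 9 peaks at D0, W1 and W2), *Bmp3* (7, 2 and 2), *Ski*, a SMAD co-repressor (13, 8 and 8), and *Twsg1*, a BMP binder (13, 7 and 8). The largest rises were at *Inhbb*, an activin subunit (0, 5 and 7), *Sostdc1*, a BMP and WNT antagonist of hair buds (4, 11 and 10), and *Acvr1*, a BMP receptor (4, 3 and 9).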

How the data were processed

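Groups came from the sample labels. The authors trimmed 40 bp paired reads, aligned them to mm10 with Bowtie2 2.2.9, removed duplicates with Picard, kept fragments up to 120 bp and pooled replicates with SAMtools 1.3.1, made tracks with deepTools 3.1.2 and called peaks with SEACR at a threshold of 0.01. Peak maxima are in RPKM in the SOX9, MYC-tag and replicate 1 lists that the authors deposited, with a minimum of 1800 in the pooled ones. Peak maxima of the 7 pooled MLL3/4 lists are whole numbers and were read as unscaled coverage. The paper's methods describe RPKM tracks, and the in vivo MLL3/4 lists are labelled RPKM, so their scale is unsure. The total signal of a deposited peak, a score, was used to rank peaks within a list. Of 41 samples, 32 stood behind the lists, and 9 (JUN, ARID1a and BRG1) were not analysed here.

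Overlaps were computed in Python 3.11.15 (NumPy 2.4.6, pandas 2.3.3), Wilson and Poisson intervals with SciPy 1.17.1 and sequences with SAMtools 1.23.1. The reference was GRCm38.p6 with GENCODE vM21. Mitochondrial peaks, up to 4 in a list, were left out. An overlap of 1 bp or more made peaks shared, a promoter was 1 kb to either side of an annotated start, and words were sought within 50 bp of the centre of the maximum. Named sites were, per member, the new SOX9 site of highest total signal at W2, those seen at all 4 times, and the strongest MLL3/4 peak lost and gained at W1, and others were added after their values were seen. The members and gene lists were chosen with earlier results of these data known. Counts are given beside those over all genes, with no test. Overlap, counting and word search were tested on simulated data.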

Additional observations from a re-analysis of the deposited data

Results flagged for a closer look

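Flagged were changes in the number of MLL3/4 peaks that ran in opposite directions in 2 settings. At *Tgfb2* the number rose in vivo, from 5 at D0 to 8 at W1 and 6 at W2, and changed by -5 with WT-SOX9 in culture, from 6 to 1. By nearest start *Tgfb2* had 5, 11 and 5 in vivo, so its W2 count did not exceed that of D0. At *Smad7* it went from 10 without DOX to 1 with WT-SOX9 but changed by 1, to 11, with dHMG-SOX9. At *Id1* it went from 8 to 2 with WT-SOX9 and changed by 3, to 11, with dHMG-SOX9. Each setting has 1 pooled list and the cultured lists share their control without DOX, so none of these differences was tested.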

How the results depend on the processing

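No paired analysis was possible because each group has 1 list of pooled replicates. The share of D0 MLL3/4 peaks lost at W1, 67.1%, ranged from 59.0% with peaks nearest to a member's start (48.5% of the list) to 75.0% with 10 kb flanks, and from 64.7 to 69.3% when each locus was left out in turn, an alternative chosen after seeing the data. The share lost at W2 ranged from 46.0% in lists of equal size to 63.5% with 10 kb flanks. In culture, the share lost with WT-SOX9 was 94.9% with 10 kb flanks and 87.5% in lists of equal size, against 58.3% of the equal-size list. The share lost with dHMG-SOX9 was 18.4% in lists of equal size, against 28.9%. In the stronger 50% of each list, 5 members instead of 9 had a SOX9 peak at W1 (31.2% of all genes instead of 52.4%) and 3 instead of 7 at W12 (23.1% instead of 39.8%), and from W1 to W12 the loci held 9, 13, 18 and 3 SOX9 peaks instead of 23, 35, 34 and 15. With 10 kb flanks they held 10, 18 and 20 from W1 to W6, and by nearest start 36 at W1 and 25 at W12. MYC-tag peaks without DOX were at 2 members (20.1% of all genes), at 1 in the stronger 50% (12.3%) and at 5 in the list of replicate 1 alone (40.7%), which has no limit at 1800 RPKM. Under the other settings each share stayed within its interval. Pooling, unknown MLL3/4 depth and the RPKM limit bound all counts.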

Other observations

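SOX9 sites beyond 50 kb, chosen after their values were seen, were nearest to *Bmp2*, *Bmp4* and *Tgfbr2* at several times, to *Smad3* at W6 (-67.2 and -81.6 kb), to *Tgfb2* at W6 (231 kb) and to *Id2* at W6 (-154 kb) and W12 (-84.4 kb), and to none of the other members. Counting peaks nearest to a start of the member, *Bmp2* had 0, 7, 6, 8 and 4 SOX9 peaks from D0 to W12, none within its 50 kb flanks. Sites seen at all 4 times included those at -234 kb, with 2132, 5424, 6968 and 3263 RPKM from W1 to W12, and at -203 kb, with 3342, 3667, 4156 and 3447 RPKM, neither on a D0 MLL3/4 peak. *Bmp4* had 0, 5, 2, 2 and 1, and its site at -126 kb, on D0 MLL3/4, had 3573, 4125, 3316 and 1838 RPKM. *Tgfbr2* had 3, 11, 11, 16 and 8 SOX9 and 28, 14 and 18 MLL3/4 peaks. Far upstream of *Tgfbr2*, SOX9 had 7145, 3743, 6548 and 7721 RPKM at -155 kb and 6684, 3667, 7556 and 7905 RPKM at -256 kb, neither on a D0 MLL3/4 peak. At -109 kb, on D0 MLL3/4, it had 1998 RPKM at D0 and 6684, 6799, 10704 and 3585 RPKM from W1 to W12, and at -111 kb 3976, 3973, 3358 and 2436 RPKM. Which gene such distant sites act on is not given by these data.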
